A study of Rattus norvegicus with 30 samples.

Results

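Il6, Cxcl1, Cxcl6 and Ccr1 are 4 genes of inflammatory signalling, and their transcripts were followed while bone marrow mesenchymal stem cells (BMSCs) of the rat were induced to differentiate for up to 72 h. They were chosen by name, as 4 of the 9999 gene names in the data, and each name stood on a single row of values in every sample. BMSCs of 3 female Sprague Dawley rats, 3 weeks old, were grown to passage 2 and then induced with commercial osteogenic, adipogenic or chondrogenic medium. RNA was measured in 30 samples, 3 of undifferentiated cells at 0 h (CON) and 3 at each of the times 3, 12 and 72 h in each lineage, namely osteogenesis (OS), chondrogenesis (CH) and adipogenesis (AD). Individual cultures were pooled within a sample, the labels do not tie a sample to a rat, and p-values therefore measure the spread between these samples, which may be partly technical. No uninduced cells of 3, 12 or 72 h were used, so time in culture, the change of medium and induction cannot be told apart in a comparison with 0 h. A fall of a transcript in such samples cannot be told apart from fewer cells of the type that expressed it.

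Il6 encodes interleukin 6, a cytokine that acts through its own receptor together with the shared signal transducer Il6st and the Jak and Stat proteins, and that marrow stromal cells secrete to act on blood-forming cells and osteoclasts. Cxcl1 and Cxcl6 encode CXC chemokines of the ELR group, which attract neutrophils through the receptor Cxcr2. Ccr1 encodes a receptor for CC chemokines that is best known on monocytes, neutrophils and osteoclast precursors. Transcription of Il6 and of the ELR chemokines is raised by NF-kB downstream of interleukin 1 and similar signals, and is restrained by glucocorticoids in many cell types.

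The start of Il6, Cxcl1 and Cxcl6 carries a match to a kB site, the DNA motif that NF-kB binds, and the 250 bases before each start are shown because the same kind of match stands in all 3. The letters were taken from RefSeq, assembly GRCr8, in which all 4 genes were found by symbol, and all 3 stretches lie on the minus strand, at chr4:5894576-5894825 for Il6, chr14:17479322-17479571 for Cxcl1 and chr14:17596418-17596667 for Cxcl6. Capitals mark matches to the NF-kB consensus and, in Il6 only among the 4 genes, the motif TGACGTCA, known as the cAMP response element.
Il6: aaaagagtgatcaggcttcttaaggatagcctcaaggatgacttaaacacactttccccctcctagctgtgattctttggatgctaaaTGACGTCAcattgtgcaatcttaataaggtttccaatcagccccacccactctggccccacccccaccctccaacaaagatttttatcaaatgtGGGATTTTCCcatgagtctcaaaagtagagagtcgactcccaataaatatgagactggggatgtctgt
Cxcl1: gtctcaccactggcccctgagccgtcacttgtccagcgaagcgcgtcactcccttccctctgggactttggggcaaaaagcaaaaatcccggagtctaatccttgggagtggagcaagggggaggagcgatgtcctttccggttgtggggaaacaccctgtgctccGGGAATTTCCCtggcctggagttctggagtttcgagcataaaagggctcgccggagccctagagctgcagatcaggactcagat
Cxcl6: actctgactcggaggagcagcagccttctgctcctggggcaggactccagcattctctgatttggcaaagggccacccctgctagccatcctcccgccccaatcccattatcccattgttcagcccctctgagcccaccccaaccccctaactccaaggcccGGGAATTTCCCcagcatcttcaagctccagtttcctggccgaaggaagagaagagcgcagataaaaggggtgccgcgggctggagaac
The kB match lay 68 to 59 bases before the start of Il6, 84 to 74 before that of Cxcl1 and 88 to 78 before that of Cxcl6, where in both chemokine genes it joins 2 overlapping matches, 1 on each strand. With both strands searched, the NF-kB consensus occurred in 3.54% of 33469 RefSeq stretches of the same length, among them the one before Cxcl2 at 74 to 64 bases. TGACGTCA lay 162 to 155 bases before the start of Il6 and occurred in 1.59% of the stretches. The stretch before Ccr1 held none of these motifs, and TGANTCA, the AP-1 motif that 6.34% of the stretches held, was found before none of the 4 genes. In the same assembly Cxcl2, Cxcl1, Cxcl3, Pf4, Ppbp and Cxcl6 lie in that order in 1 stretch of the chromosome, with other genes between some of them, and Ccr1 lies beside Ccr3.

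The values deposited by the authors are reads scaled to a common library total (CPM), with no gene length in them, so levels are compared between samples and not between genes. Totals ran from 3899609 to 9046719 reads per sample, the lowest in chondrogenesis at 72 h, of which 38.9 to 71.4% fell on the listed genes. This share differed between groups. It was 53.7 to 54.2% at 0 h, 63.1 to 68.8% at 3 h and 68.7 to 71.4% at 12 h of osteogenesis. At 72 h of adipogenesis it was 38.9 to 49.0%, and in the other groups 54.2 to 67.7%. The CPM values were not adjusted for it. The floor of detection was set at 3 reads, or 0.332 to 0.769 CPM, and covers counting error only. Each of the 4 genes passed the filter of 1 CPM in at least 3 samples that left 4363 genes for testing. Values entered 1 limma model of the 30 samples as log2(CPM + 1), a scale that understates the change of low genes. A difference was called when its log2 size was 1 or more with a Benjamini-Hochberg adjusted p under 0.05 over all tested genes. Against 0 h, 18.4, 21.8 and 12.5% of all tested genes were called in osteogenesis at 3, 12 and 72 h, 18.8, 13.7 and 15.3% in adipogenesis, and 18, 14.4 and 18% in chondrogenesis. Replicate 3 of adipogenesis at 72 h stood apart from the other replicates of its group, with 38.9% of its reads in the listed genes against 47.9 and 49.0%, and values of the 4 genes are given with and without it where leaving it out changed a call or moved the log2 fold change by over 1.5 times. By the same share replicate 1 of adipogenesis at 12 h stood as far from its group, at 64.6% against 54.2 and 54.3%. Without it Il6, Cxcl6 and Ccr1 kept their calls at 12 h against 0 h (log2 fold changes -2.70, 2.46 and -4.26) and Cxcl1 stayed under the threshold (0.86).

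Among the stromal markers, Thy1 was present at 387 to 8280 CPM and Cd44 at 258 to 2014 CPM in all samples, whereas Pdgfra, Pdgfrb, Eng and Vim never passed 1.82 CPM. Vim is abundant in cultured mesenchymal cells, so a low value in these data is not read as absence of a transcript. Of 21 leukocyte markers, 5 had values (Csf1r, Lyz2, Adgre1, Spi1 and Mrc1), none of them above 16 reads in any sample, and their sum was 2.38 to 4.81 CPM in adipogenesis at 72 h and at most 1.88 CPM in each of the other groups.

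Il6 was highest before induction and fell in all 3 lineages, almost completely within 3 h in osteogenesis and chondrogenesis and more slowly and incompletely in adipogenesis. The undifferentiated samples had 43.4, 39.3 and 44.1 CPM, or 42.3 ± 2.61 CPM (SD, n = 3). After 3 h of osteogenesis 2.82, 1.58 and 1.66 CPM were left, a level 20.9-fold lower (log2 fold change -3.86, SE 0.29, limma adjusted p = 4.97e-12). No osteogenic sample of any time came near the undifferentiated ones. At 12 h of osteogenesis Il6 rested on 3, 3 and 5 reads and at 72 h on 7, 0 and 4 reads, at or near the floor, with fitted log2 fold changes of -4.80 and -4.86.

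Chondrogenesis had reached that low range by 3 h, with 2, 10 and 4 reads of Il6, followed by 5, 7 and 4 reads at 12 h and by 1, 4 and 1 reads at 72 h. The fitted log2 fold changes against 0 h were -4.68, -4.58 and -4.92, and all 3 were called. Beyond 3 h the chondrogenic samples overlapped from one time to the next, and no further change of Il6 was called (adjusted p = 0.879 at 12 h and 0.399 at 72 h, limma).

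Adipogenic cells kept more Il6. They had 20.8, 29.0 and 22.0 CPM at 3 h, below every undifferentiated sample, but the log2 fold change of -0.81 (limma adjusted p = 0.026) did not reach the threshold of size. Median-ratio scaling, quantile normalization and edgeR on the recovered reads moved it to -1.05, -1.08 and -1.10, past the threshold. By 12 h the level had fallen to 6.87, 4.42 and 7.22 CPM, called against 0 h (log2 fold change -2.62, adjusted p = 2.25e-08) and against 3 h (-1.81, adjusted p = 1.49e-05). At 72 h it was 6.94, 11.5 and 5.54 CPM, a range that overlapped with 12 h (log2 fold change 0.30, adjusted p = 0.46). Without replicate 3 of 72 h that log2 fold change was 0.50, not called either.

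The difference of Il6 between adipogenesis and the other lineages was itself past the threshold at every time. Osteogenesis lay below adipogenesis by a log2 difference of -3.05 at 3 h (limma adjusted p = 3.05e-09), of -2.19 at 12 h and of -2.54 at 72 h. For chondrogenesis the differences were -3.87, -1.97 and -2.60. These 3 adipogenic groups overlapped with no osteogenic or chondrogenic sample of the same time, and in the order of levels they came next after the undifferentiated cells. Osteogenesis and chondrogenesis were not distinguished from each other at any time. At 3 h, where osteogenesis lay above chondrogenesis in all samples, the log2 difference was 0.82 (adjusted p = 0.0503, limma), and edgeR on reads gave 1.53, past the threshold. Below osteogenesis at 3 h, each group overlapped with the next in the order of levels.

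**Figure D1:**
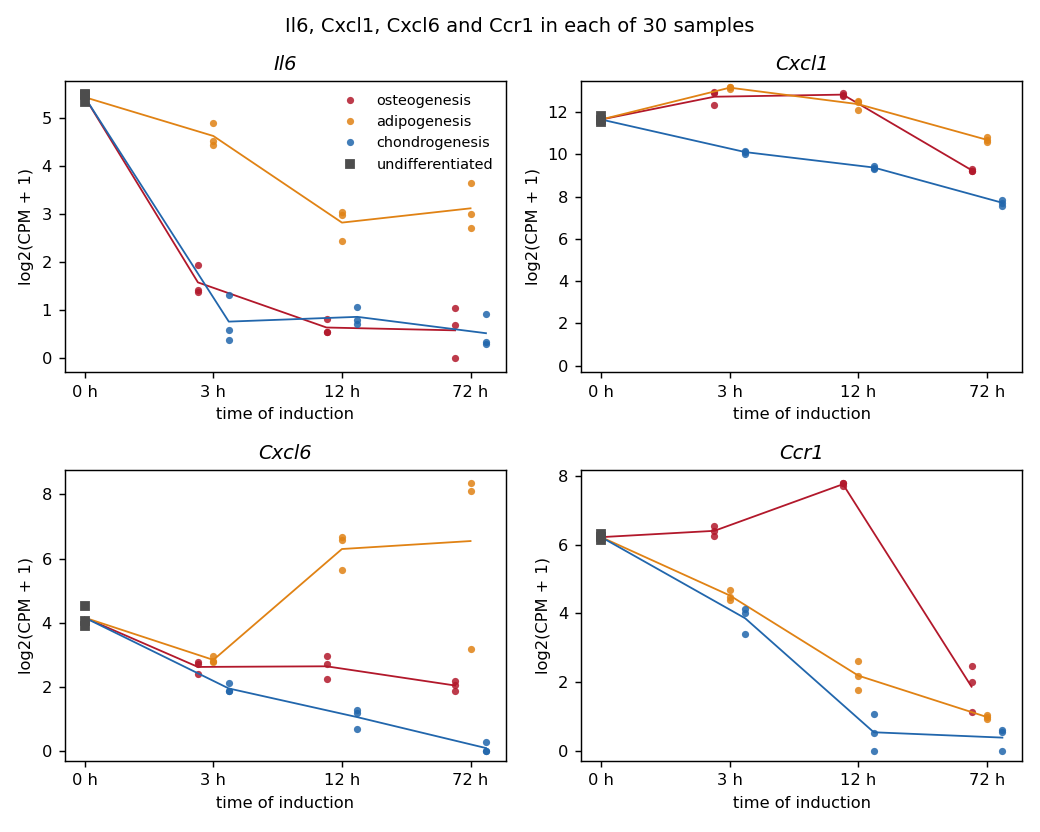
Each point is 1 of 30 samples, with log2(CPM + 1) of the gene on the vertical axis and the time of induction on the horizontal axis, whose 4 times are spaced evenly and not to scale. Squares are undifferentiated samples and lines join the group means. Il6 was highest at 0 h, Ccr1 rose to 208 to 222 CPM at 12 h of osteogenesis alone among the lineages, and 1 of 3 adipogenic samples of 72 h lay far below the others for Cxcl6.

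Cxcl1 moved in opposite directions in the lineages. It rose within 3 h of adipogenesis and osteogenesis, fell within 3 h of chondrogenesis, and was below its starting level in all 3 lineages by 72 h. Undifferentiated samples had 2996, 3574 and 3120 CPM (3230 ± 305, SD, n = 3).

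In adipogenesis Cxcl1 reached 8860, 9250 and 9363 CPM at 3 h, the highest group of all, which was 2.84 times the level at 0 h (log2 fold change 1.51, SE 0.13, limma adjusted p = 6.05e-11). It then came down to 4442, 5664 and 6003 CPM at 12 h, still above every undifferentiated sample, although the log2 fold change of 0.73 was under the threshold of size. At 72 h the samples had 1790, 1656 and 1526 CPM, below every undifferentiated sample, with a log2 fold change of -0.96 that was again short of the threshold. That last value passed it when replicate 1 of either group was left out (-1.02 and -1.01). The step from 12 to 72 h was called (log2 fold change -1.69, adjusted p = 5.11e-12, limma).

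In osteogenesis Cxcl1 stayed raised for longer and then dropped. Samples of 3 h had 7618, 8070 and 5113 CPM and samples of 12 h 7076, 7677 and 7123 CPM, all above the undifferentiated samples, with log2 fold changes of 1.08 and 1.18 (limma adjusted p = 4.23e-08 and 5.97e-09). Both calls depended on the scaling, since with median-ratio scaling both log2 fold changes were 0.84 and with edgeR they were 0.86 and 0.77, above 0 but under 1. Quantile normalization brought the value of 12 h to 0.94, and without replicate 1 or 2 of osteogenesis at 3 h the value of 3 h was 0.996 and 0.954, no longer called. At 72 h only 603, 592 and 640 CPM remained, a log2 fold change of -2.40 against 0 h and of -3.57 against 12 h (adjusted p = 4.93e-20, limma). This was the largest fall of Cxcl1 between 2 consecutive times in any lineage.

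In chondrogenesis Cxcl1 had 1159, 1112 and 1048 CPM at 3 h, 655, 643 and 701 CPM at 12 h and 209, 231 and 188 CPM at 72 h. Each group lay below the one before it, and all 3 were called against 0 h, with log2 fold changes of -1.54, -2.27 and -3.94. Chondrogenesis lay below osteogenesis at 3 h (log2 difference of osteogenesis to chondrogenesis 2.62, limma adjusted p = 8.01e-16), at 12 h (3.45) and at 72 h (1.55). Against adipogenesis the differences were -3.05, -3.00 and -2.98, nearly the same at each time. Osteogenesis and adipogenesis differed by less than the threshold at 3 h (-0.43) and 12 h (0.45), and osteogenesis was lower at 72 h (-1.43, adjusted p = 4.43e-10).

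Neighbouring groups in the order of Cxcl1 levels did not overlap, except that osteogenesis at 12 h overlapped with osteogenesis at 3 h, and this with adipogenesis at 12 h. Scaling moved the median of all tested genes as well: with median-ratio scaling the median log2 fold change against 0 h was lower by 0.12 and 0.16 at 3 and 12 h of osteogenesis, by 0.15 at both times of adipogenesis and by 0.21 and 0.14 at those of chondrogenesis. The fall of Cxcl1 in chondrogenesis was called under each of the scalings.

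**Figure D2:**
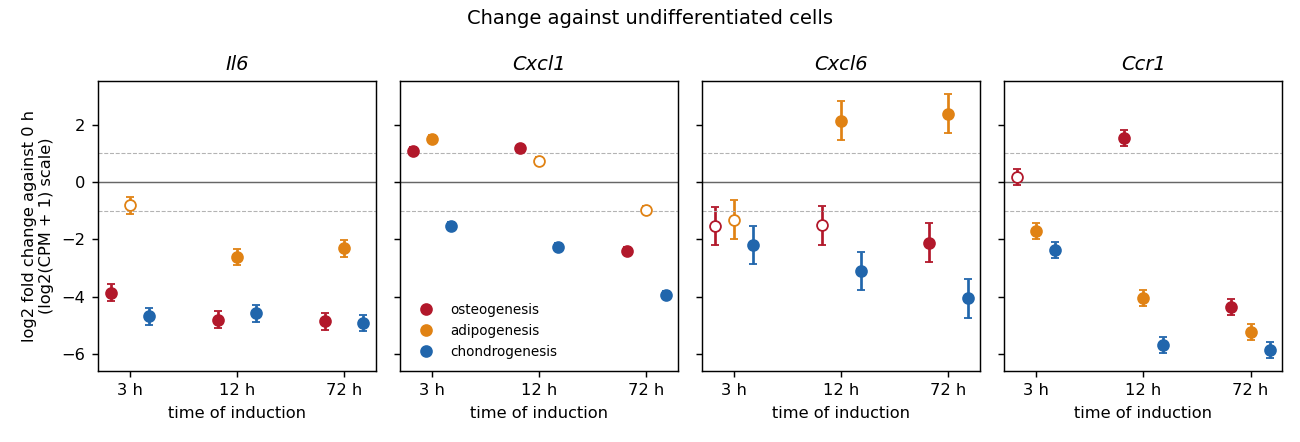
The log2 fold change of each gene against 0 h, on the log2(CPM + 1) scale, is plotted for 3, 12 and 72 h of each lineage, with bars of 1 SE from the limma model of all samples. Filled points passed both thresholds, open points did not, and dashed lines mark a log2 fold change of 1 in either direction. Il6 lay below 0 throughout, whereas Cxcl1, Cxcl6 and Ccr1 each had at least 1 filled point above 0 and others below it.

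Cxcl6 rose only in adipogenesis among the comparisons with 0 h, and it fell in the other lineages, furthest in chondrogenesis. Undifferentiated samples had 22.2, 13.9 and 15.5 CPM (17.2 ± 4.40, SD, n = 3).

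In adipogenesis Cxcl6 was first lower, at 5.86, 6.77 and 5.95 CPM at 3 h, then rose to 49.3, 94.7 and 101 CPM at 12 h (log2 fold change 2.14, SE 0.67, limma adjusted p = 0.013). The step from 3 to 12 h was called as well (3.46, adjusted p = 0.000167). Samples of 72 h had 275, 326 and 8.08 CPM, so replicates 1 and 2 lay above every sample of 12 h while replicate 3 lay below all undifferentiated samples. The log2 fold change of that group was 2.39 with the 3 samples (adjusted p = 0.00572) and 4.07 (SE 0.28) without replicate 3, and it was 1.61 and 1.49, not called, without replicate 1 or 2. The step from 12 to 72 h was 0.25 and not called with the 3 samples, and 1.93 and called without replicate 3 (limma adjusted p = 1.28e-06). For 72 h against 0 h, a fit on the 6 samples of that comparison alone kept the 2.39 but not the call (limma adjusted p = 0.267).

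Replicate 3 of this group was low for other genes that the remaining replicates expressed. Ccl2 had 1212, 1530 and 233 CPM in replicates 1, 2 and 3, Ccl7 had 958, 1038 and 146 CPM, and Cxcl14, a chemokine of fibroblasts and adipose tissue, had 75.9, 78.0 and 0.475 CPM. Il6, Cxcl1 and Ccr1 did not set it apart, with 5.54 CPM, 1526 CPM and 0.9504 CPM there. The part of this library in the spread of Cxcl6 was measured by leaving it out: the SE fell from 0.67 to 0.25 for comparisons of other groups, and all 9 comparisons with 0 h were then called.

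In osteogenesis Cxcl6 had 5.80, 5.53 and 4.29 CPM at 3 h and 5.57, 3.74 and 6.86 CPM at 12 h, below every undifferentiated sample. With all samples these log2 fold changes of -1.53 and -1.51 were not called (limma adjusted p = 0.0705 and 0.0682), and neither was the -1.32 of adipogenesis at 3 h (adjusted p = 0.119). Without replicate 3 of adipogenesis at 72 h the same log2 fold changes had adjusted p of 6.17e-06, 6.47e-06 and 6.07e-05. At 72 h osteogenesis was at 2.69, 3.59 and 3.16 CPM, called with a log2 fold change of -2.11.

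In chondrogenesis Cxcl6 went from 2.70, 2.64 and 3.32 CPM at 3 h to 1.30, 0.623 and 1.43 CPM at 12 h, and to 0, 0 and 1 read at 72 h. That last group was at least 24.6-fold lower than the undifferentiated cells, the floor being 3 reads per library. The log2 fold changes of 3 and 12 h were -2.21 and -3.10, and all 3 times were called.

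Between lineages, Cxcl6 did not differ past the threshold at 3 h. At 12 h adipogenesis was above osteogenesis (log2 difference of osteogenesis to adipogenesis -3.66, limma adjusted p = 7.55e-05) and above chondrogenesis (-5.24). At 72 h the differences were -4.50 and -6.45 with all samples, and -6.19 and -8.13 without replicate 3 of adipogenesis. Osteogenesis lay above chondrogenesis by a log2 difference of 1.59 at 12 h, not called with all samples (adjusted p = 0.0672) but called without that replicate (adjusted p = 4.74e-06), and by 1.95 at 72 h, called (adjusted p = 0.0206, limma). The call at 72 h was lost without the filter (limma adjusted p = 0.051). It was also lost without replicate 2 of osteogenesis or replicate 1 or 2 of chondrogenesis at 72 h (limma adjusted p = 0.053 to 0.061). The lineages did not overlap at 72 h even with replicate 3 of adipogenesis, whose 8.08 CPM was above each of the osteogenic and chondrogenic samples.

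Ccr1 rose 2.94-fold at 12 h of osteogenesis, and by 72 h it had almost vanished in all 3 lineages. It was at 79.2, 69.1 and 73.4 CPM before induction (73.9 ± 5.08, SD, n = 3). After 3 h of osteogenesis the samples had 83.5, 93.1 and 76.1 CPM, which overlapped with the undifferentiated cells. The small log2 fold change of 0.18 (limma adjusted p = 0.656) turned to -0.055 with median-ratio scaling, to -0.054 with edgeR and to -0.18 with quantile normalization. After 12 h there were 222, 222 and 208 CPM, above every other sample of the series, with a log2 fold change of 1.54 against 0 h (SE 0.28, adjusted p = 3.02e-05) and of 1.36 against 3 h. At 72 h 1.19, 2.96 and 4.52 CPM were left, on 8 to 30 reads, a log2 fold change of -4.36 against 0 h and of -5.91 against 12 h (adjusted p = 3.57e-17, limma).

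In the other lineages Ccr1 fell from the first time on. Adipogenesis had 20.01, 21.4 and 24.8 CPM at 3 h, 5.12, 3.50 and 2.41 CPM at 12 h and 1.07, 0.887 and 0.9504 CPM at 72 h. The log2 fold changes against 0 h were -1.70, -4.04 and -5.25. Chondrogenesis had 16.6, 15.3 and 9.59 CPM at 3 h, 3, 0 and 7 reads at 12 h and 2, 0 and 2 reads at 72 h. That last group was at least 106-fold lower than at 0 h, and the log2 fold changes of 3 and 12 h were -2.37 and -5.69. Each of these comparisons was called.

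Osteogenesis had more Ccr1 than adipogenesis at 3 h (log2 difference 1.89, limma adjusted p = 7.87e-06) and 12 h (5.59, adjusted p = 8.66e-16), and more than chondrogenesis at 3 h (2.55), 12 h (7.24) and 72 h (1.49). At 72 h its difference from adipogenesis was 0.89 and not called, although the samples did not overlap, and edgeR gave 1.30, past the threshold. Chondrogenesis was below adipogenesis at 12 h (-1.65), and at 3 and 72 h the differences of -0.67 and -0.60 were not called. In the order of levels osteogenesis at 3 h overlapped with the undifferentiated cells, adipogenesis at 12 h with osteogenesis at 72 h, and the last 3 groups with one another in turn.

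At 12 h of osteogenesis, where Ccr1 was at 208 to 222 CPM, the 5 leukocyte markers with values summed to 0.598 to 0.914 CPM, against 0.152 to 0.975 CPM in undifferentiated cells. Among them Csf1r, the receptor for macrophage colony-stimulating factor, had 4 to 5 reads per sample there and 0 to 3 at 0 h, at least 1.62-fold higher. Spi1, a transcription factor of myeloid cells, had 0 reads there and 1 to 4 at 0 h, and Adgre1 and Mrc1 had 0 reads in both groups. The part of such cells in the rise of Ccr1 was not tested.

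**Figure D3:**
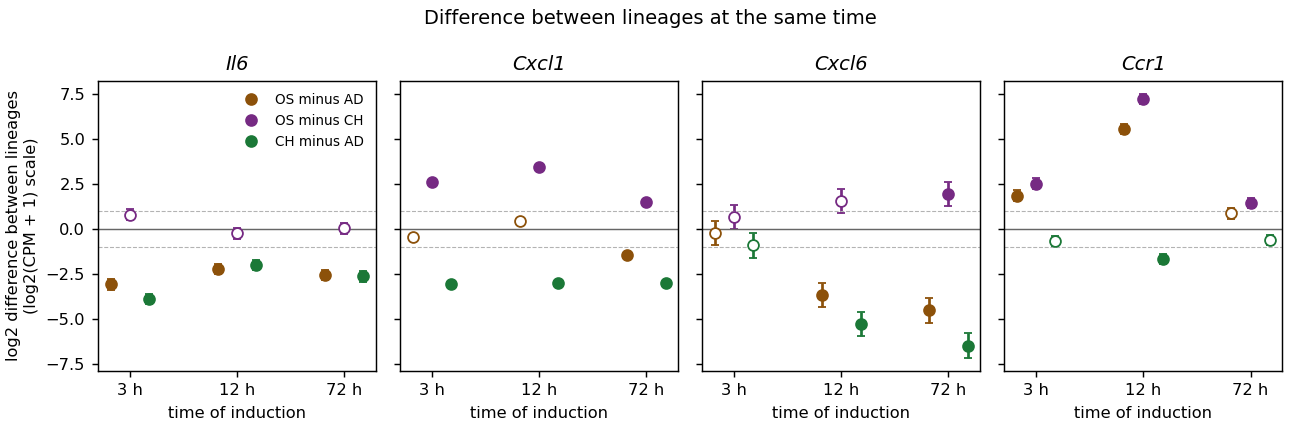
Each point is the log2 difference between 2 lineages at the same time, on the log2(CPM + 1) scale, with bars of 1 SE from the limma model of all samples. Filled points passed both thresholds and open points did not. Il6 was lower in osteogenesis and in chondrogenesis than in adipogenesis at each time, and the 7.24 of Ccr1 between osteogenesis and chondrogenesis at 12 h was the greatest difference plotted.

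Counted over the 9 comparisons with 0 h, Il6 was called lower in 8 and higher in 0, Cxcl1 lower in 4 and higher in 3, Cxcl6 lower in 4 and higher in 2, and Ccr1 lower in 7 and higher in 1. Without replicate 3 of adipogenesis at 72 h Cxcl6 gained its 3 remaining calls, all lower, and the calls of the other 3 genes stayed as they were. The 4 genes had been singled out with results of these data known, so these counts are no independent evidence beside the 12.5 to 21.8% of all tested genes that were called. The 9 comparisons share the same 3 undifferentiated samples. Between lineages, where those samples play no part, Il6 was called in 6 of 9 comparisons, Cxcl1 in 7, Cxcl6 in 5 and Ccr1 in 6. The shares of all tested genes called there were 7.66, 13.2 and 13.7% at 3, 12 and 72 h for osteogenesis against adipogenesis, 7.31, 16 and 19.6% for osteogenesis against chondrogenesis, and 9.35, 13.6 and 25.5% for chondrogenesis against adipogenesis. From 3 to 12 h and from 12 to 72 h the shares were 7.82 and 23.2% within osteogenesis, 12.9 and 16% within adipogenesis, and 7.68 and 13.2% within chondrogenesis.

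The patterns of the 4 genes were not alike. Over the 10 group means of log2(CPM + 1), Pearson's r was 0.75 between Cxcl1 and Ccr1, 0.52 between Il6 and Cxcl1, 0.59 between Il6 and Cxcl6, 0.51 between Cxcl1 and Cxcl6, 0.25 between Il6 and Ccr1 and 0.06 between Cxcl6 and Ccr1. The 3 tested genes most like Il6 were Mknk1 (0.91), Fam43a and Rcan2 (0.90 each), of which Mknk1 and Rcan2 never had a group mean above 2.67 CPM. For Cxcl1 they were Terf1 (0.90), Cxcl2 and Fyb1 (0.89 each). For Cxcl6 they were Antxr2 (0.94), Mxd1 and Il16 (0.92 each), and for Ccr1 Slc16a3 (0.93), Xxylt1 and Plekha3 (0.92 each). These values describe 10 group means that share their libraries and were picked as the highest of 4363 genes.

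The other ELR chemokines were far scarcer in reads than Cxcl1, but part of its pattern recurred in them. Cxcl2 had 3.29, 3.76 and 4.70 CPM at 0 h, 13.3, 14.2 and 14.1 CPM at 3 h of adipogenesis (log2 fold change 1.60, limma adjusted p = 7.7e-07) and 10.4, 12.0 and 9.60 CPM at 12 h of osteogenesis (1.25). Like Cxcl1 it was called lower at all 3 times of chondrogenesis, and it was at least 8.60-fold lower at 72 h of osteogenesis, where at most 1 read per sample was left. At 12 h of adipogenesis the genes parted, since Cxcl2 lay below all undifferentiated samples at 1.61, 1.47 and 1.67 CPM, while Cxcl1 lay above them. The log2 fold change of Cxcl2 there was -0.92, and it was called with median-ratio scaling (-1.10) and edgeR (-1.56). The call of Cxcl2 at 12 h of osteogenesis was lost with median-ratio scaling (0.96). How reads shared by related chemokine genes were assigned is not given in the sources used here.

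Cxcl3 was called higher at 12 h of osteogenesis, where it reached 6.48, 5.68 and 8.23 CPM from 1.58, 1.25 and 1.06 CPM at 0 h (log2 fold change 1.76), and was at 0 reads in all samples of 72 h of osteogenesis and chondrogenesis. Of 8 genes on the ELR list 4 were tested, and since 2 of these are Cxcl1 and Cxcl6 themselves, the counts below add only Cxcl2 and Cxcl3 to what is given above. At 72 h of osteogenesis 4 of 4 were called lower, with a median log2 fold change of -2.13 beside 0.08 over all tested genes, and at 12 h of osteogenesis 3 of 4 were called higher (median 1.21 beside 0.09), a count that went down to 2 with quantile normalization or edgeR and to 1, Cxcl3, with median-ratio scaling. In chondrogenesis 3 of 4 were lower at 3 h and 4 of 4 at 12 and 72 h. The medians were -1.57, -2.25 and -3.03, beside 0.21, 0.11 and 0.01 over all tested genes. Of all tested genes 21.8 and 12.5% were called at 12 and 72 h of osteogenesis, and 18, 14.4 and 18% in chondrogenesis. Elsewhere the counts were smaller: 1 higher at 3 h of osteogenesis, 2 higher at 3 h and 1 higher at 12 h of adipogenesis. At 72 h of adipogenesis 1 was higher and 1 lower.

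The monocyte-attracting chemokines Ccl2 and Ccl7 were abundant before induction and had a pattern of their own. Ccl2 was at 1428, 1257 and 1429 CPM at 0 h and fell within 3 h of osteogenesis to 328, 329 and 292 CPM (log2 fold change -2.11, limma adjusted p = 5.6e-06). It stayed low there at 12 h (-1.81) and 72 h (-3.09). So at 3 and 12 h of osteogenesis Ccl2 was lower than before induction while Cxcl1 was higher. In chondrogenesis the log2 fold change of Ccl2 was -0.75 at 3 h and -0.32 at 12 h, neither of them called, and at 72 h 115, 141 and 125 CPM were left (-3.42). At 3 h all chondrogenic samples lay below those of 0 h, and median-ratio scaling, quantile normalization and edgeR brought the value to -1.09, -1.15 and -1.12, past the threshold. The same alternatives called Ccl2 lower at 3 h of adipogenesis (-1.23, -1.31 and -1.27), where the limma value of -0.98 was just short of it.

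Ccl7, which lies close to Ccl2 in function, was called lower in 8 of the 9 comparisons with 0 h, all but 12 h of adipogenesis, where it had 1202, 830 and 792 CPM against 1116, 1130 and 1145 CPM at 0 h. Its call at 72 h of adipogenesis rested on the replicate that stood apart, and without it the log2 fold change went from -1.10 to -0.18. The call was also lost with median-ratio scaling, quantile normalization and edgeR (-0.91, -0.81 and -0.60). Ccl2 at 72 h of adipogenesis was not called (-0.85), and without that replicate its log2 fold change was -0.0075, while without replicate 1 or 2 it was -1.19 and -1.36, past the threshold.

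Cxcl10, a chemokine induced by interferons, never passed 2 reads in an undifferentiated sample and had 4.97, 5.38 and 5.33 CPM at 12 h of osteogenesis, at least 12.0-fold higher. It was also called higher at 3 h of osteogenesis and at 3 and 12 h of adipogenesis, although the first adipogenic call was lost with median-ratio scaling and quantile normalization (0.96 and 0.92) and without replicate 2 of its group (0.84) or replicate 3 of 0 h (0.94). The call at 3 h of osteogenesis was lost without replicate 1 of that group (0.99). At 72 h of adipogenesis its log2 fold change was 0.93, called with median-ratio scaling (1.11) and edgeR (3.27), and 0.51 without replicate 3. Of the 29 genes on the list of other chemokines 6 were tested. Between 0 and 2 of these 6 were called higher in each comparison with 0 h and between 0 and 3 lower.

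**Figure D4:**
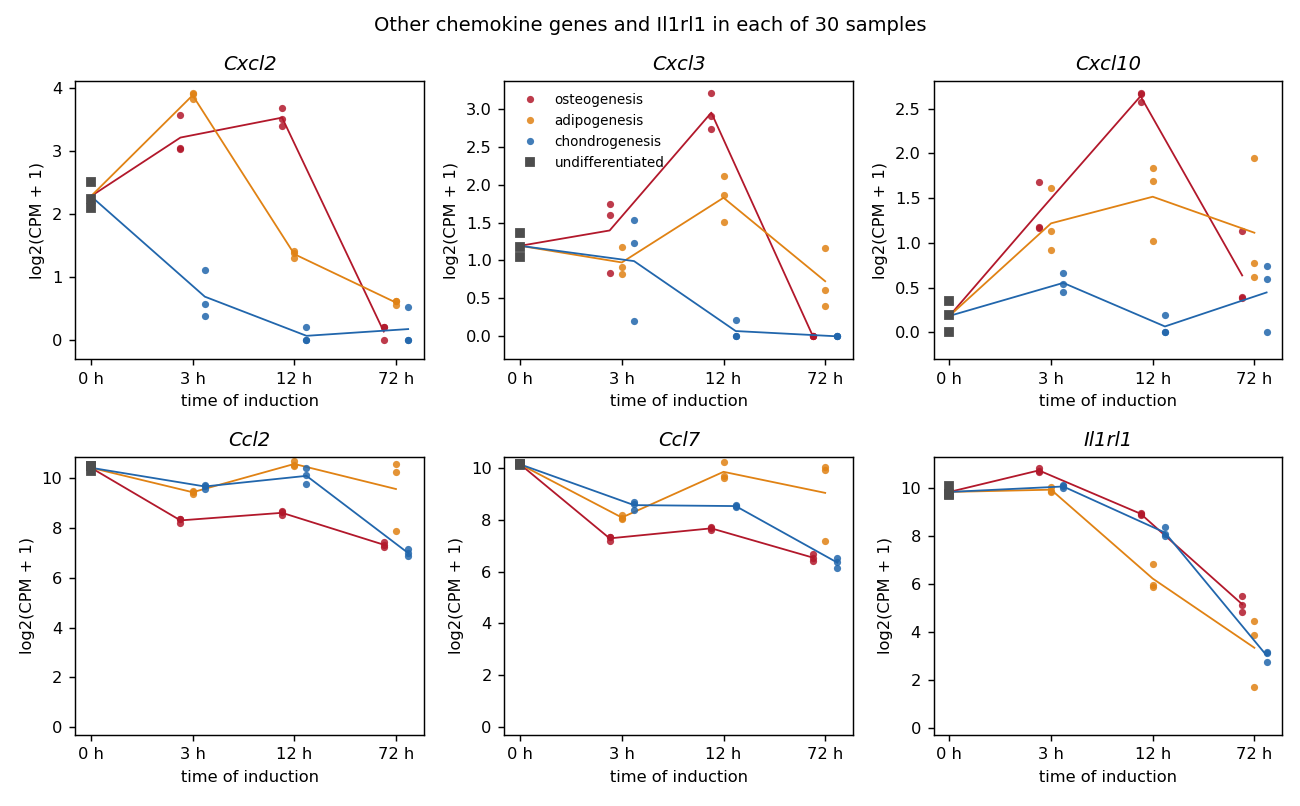
Each point is 1 of 30 samples, with log2(CPM + 1) on the vertical axis, whose range differs between panels, and the 4 times spaced evenly on the horizontal axis. Lines join group means. Cxcl2 rose with Cxcl1 at 3 h of adipogenesis and 12 h of osteogenesis. At 3 and 12 h Ccl2 and Ccl7 were lower in osteogenesis than in the other lineages of the same time. Il1rl1 was low in all 3 lineages at 72 h.

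Among receptors, Ccrl2, an atypical receptor that binds chemerin, was the other tested gene of a list of 22. It was called higher at 72 h of osteogenesis (log2 fold change 1.52, limma adjusted p = 0.00118) and at 12 h of adipogenesis (1.10). The second call rested on 7.17, 2.76 and 1.67 CPM against 1.29, 1.25 and 0.607 CPM at 0 h, and was lost without replicate 1 of adipogenesis at 12 h (0.65), without replicate 3 of 0 h (0.94) and with median-ratio scaling (0.94). Cxcr2 did not pass the filter.

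For the Il6 family 5 of 17 genes were tested, and with all samples no other tested gene of the list was called lower in a comparison with 0 h. Il6st at 72 h of chondrogenesis (log2 fold change -0.77) was called lower without replicate 1 of 0 h (-1.07). Il6st, the signal-transducing subunit shared by the family, went from 0.573, 2.65 and 1.36 CPM at 0 h to 6.77, 9.58 and 9.19 CPM at 72 h of adipogenesis (log2 fold change 1.98, limma adjusted p = 3.04e-05), where Il6 was 5.28-fold lower. Ctf1, a cytokine of the same family, was called higher at 72 h of all 3 lineages (1.55, 1.83 and 2.77 for osteogenesis, adipogenesis and chondrogenesis) and at 12 h of chondrogenesis. Socs1, an inhibitor of Jak signalling, rose from 0.143, 0.279 and 0.758 CPM at 0 h to 22.1, 24.8 and 16.7 CPM at 72 h of chondrogenesis (3.999). It was also called higher at 12 h of chondrogenesis and at 3 h of adipogenesis. The kinase Jak1 was called in none of the 9 comparisons by limma with all samples, but at 72 h of adipogenesis edgeR (1.16) and limma without replicate 2 of 0 h (1.06) called it higher.

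Interleukin 1 is a main inducer of Il6 and of the ELR chemokines. Its gene Il1a had 9.74, 8.64 and 5.61 CPM at 0 h and 0 reads in all samples of 72 h, at least 11.4-fold lower in chondrogenesis, 15.6-fold in adipogenesis and 17.5-fold in osteogenesis. It was called lower in 7 of 9 comparisons, and at 3 h of adipogenesis (-0.85) also with median-ratio scaling (-1.06) and edgeR (-1.31). Il1b rose early, from 1.86, 2.09 and 1.67 CPM to 7.99, 9.48 and 10.8 CPM at 3 h of osteogenesis (log2 fold change 1.85, limma adjusted p = 7.23e-08) and to 6.52, 5.51 and 4.16 CPM at 3 h of adipogenesis. The second rise of 1.14 was under the threshold with median-ratio scaling (0.96). At 3 h of chondrogenesis Il1b had 2.70, 4.26 and 3.20 CPM, above every undifferentiated sample but not called. At 12 h of osteogenesis it was called lower by edgeR only (-1.69). By 72 h Il1b had 0 reads in osteogenesis and adipogenesis and at most 1 in chondrogenesis.

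Il1rl1, the receptor for interleukin 33, had the largest fitted changes on the list of upstream cytokines and receptors, from 835, 859 and 1100 CPM at 0 h to 44.8, 27.8 and 33.4 CPM at 72 h of osteogenesis, 13.5, 21.1 and 2.22 CPM of adipogenesis and 7.95, 7.74 and 5.78 CPM of chondrogenesis. Its log2 fold changes at 72 h were -4.70, -6.52 (-5.69 without replicate 3 of adipogenesis) and -6.84. At 3 h of osteogenesis Il1rl1 was higher than at 0 h, with 1677, 1866 and 1643 CPM. That log2 fold change of 0.90 passed the threshold without replicate 3 of 0 h (1.03). At 12 h of osteogenesis it was called lower only with median-ratio scaling (-1.24), quantile normalization (-1.40) and edgeR (-1.32). Of the 5 tested genes of that list 3 were called lower at 72 h of each lineage, with medians of -1.52, -1.52 and -1.41 for osteogenesis, adipogenesis and chondrogenesis. Over all tested genes the medians were 0.08, -0.05 and 0.01, with 12.5, 15.3 and 18% called in either direction. At 3 h of osteogenesis and of adipogenesis 2 of the 5 were called higher and 0 lower, beside 18.4 and 18.8% of all tested genes called. Il1rap, also on that list, was called higher at 3 h of osteogenesis and adipogenesis (1.12 each) and at 12 h of chondrogenesis (1.08). Each of these calls was lost without replicate 1 of 0 h (0.97, 0.97 and 0.93).

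Csf2, which encodes the growth factor GM-CSF, was kept in osteogenesis at 12 h, with 2.86, 3.14 and 3.50 CPM against 4.30, 3.20 and 3.34 CPM at 0 h, and was at 0 reads in all samples of 12 h of adipogenesis and chondrogenesis, at least 7.01-fold and 7.88-fold lower. At 72 h of osteogenesis it had at most 1 read. Mmp13, a collagenase, was called higher only at 72 h of adipogenesis among the 9 comparisons, with 53.6, 64.4 and 3.96 CPM and a log2 fold change of 3.55, or 4.74 without replicate 3.

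Of 16 NF-kB genes 4 were tested. Rela, Nfkb1 and Nfkbia were called in none of the 9 comparisons with the scaling used here. At 3 h of adipogenesis Rela lay below all undifferentiated samples (log2 fold change -0.74), and quantile normalization (-1.03) and edgeR (-1.02) called it lower. Nfkb1 was called lower by edgeR at 12 h of osteogenesis (-1.92). Relb, an NF-kB subunit of the alternative pathway, was called lower at 12 h of osteogenesis (log2 fold change -1.15, limma adjusted p = 0.000698), at 3 and 12 h of adipogenesis (-1.31 and -1.13) and at 3 h of chondrogenesis (-1.57). Its highest value at 0 h was 4.88 CPM, so these changes rest on few reads. Median-ratio scaling (-1.04) and edgeR (-1.45) called it lower at 3 h of osteogenesis too, and edgeR at 12 h of chondrogenesis (-1.36). The call of Relb at 12 h of osteogenesis was lost without replicate 1 of that group (-0.98). No tested NF-kB gene was called higher against 0 h with all samples, and Nfkb1 at 12 h of adipogenesis (0.91) passed the threshold without replicate 2 of that group (1.08) or replicate 1 of 0 h (1.12).

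Among the regulators of Il6 transcription and RNA decay 3 of 16 were tested. Jun, a subunit of AP-1, fell at 3 h of osteogenesis to 6.89, 7.58 and 6.64 CPM from 22.6, 24.8 and 18.5 CPM (log2 fold change -1.51, limma adjusted p = 0.000128), and at 12 h of chondrogenesis (-2.28) and adipogenesis (-1.69). Zfp36 encodes a protein that speeds the decay of cytokine RNA. It was called lower at 3 and 12 h of adipogenesis (-1.32 and -1.10, the second under the threshold at -0.92 and -0.97 without replicate 2 or 3 of its group) and higher at 72 h of adipogenesis and osteogenesis (1.58 and 1.26). All samples of 72 h of chondrogenesis also lay above those of 0 h, with 1277, 969 and 991 CPM against 521, 512 and 590 CPM, and the log2 fold change of 0.99 passed the threshold without replicate 2 or 3 of that group or replicate 3 of 0 h (1.04 to 1.06). At 12 h of osteogenesis and chondrogenesis Zfp36 also lay below every undifferentiated sample, with log2 fold changes of -0.81 and -0.80 that were not called. Median-ratio scaling, quantile normalization and edgeR called both, at -1.14, -1.24 and -1.22 in osteogenesis and at -1.03, -1.10 and -1.06 in chondrogenesis, and quantile normalization called it at 3 h of osteogenesis (-1.02).

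Tsc22d3, a glucocorticoid-induced gene also known as Gilz, was called higher in all 9 comparisons with 0 h, from 31.1, 26.9 and 25.3 CPM at 0 h to 599, 784 and 766 CPM at 72 h of osteogenesis (log2 fold change 4.63, limma adjusted p = 2.79e-20). The smallest of its changes was 1.40 at 12 h of osteogenesis, which quantile normalization brought under the threshold (0.96). At 3 h its log2 fold changes were 1.45, 2.54 and 2.20 in osteogenesis, adipogenesis and chondrogenesis. Sgk1, the other tested gene of 9 on the list of glucocorticoid-responsive genes, was called in none of the 9 comparisons by limma.

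**Figure D5:**
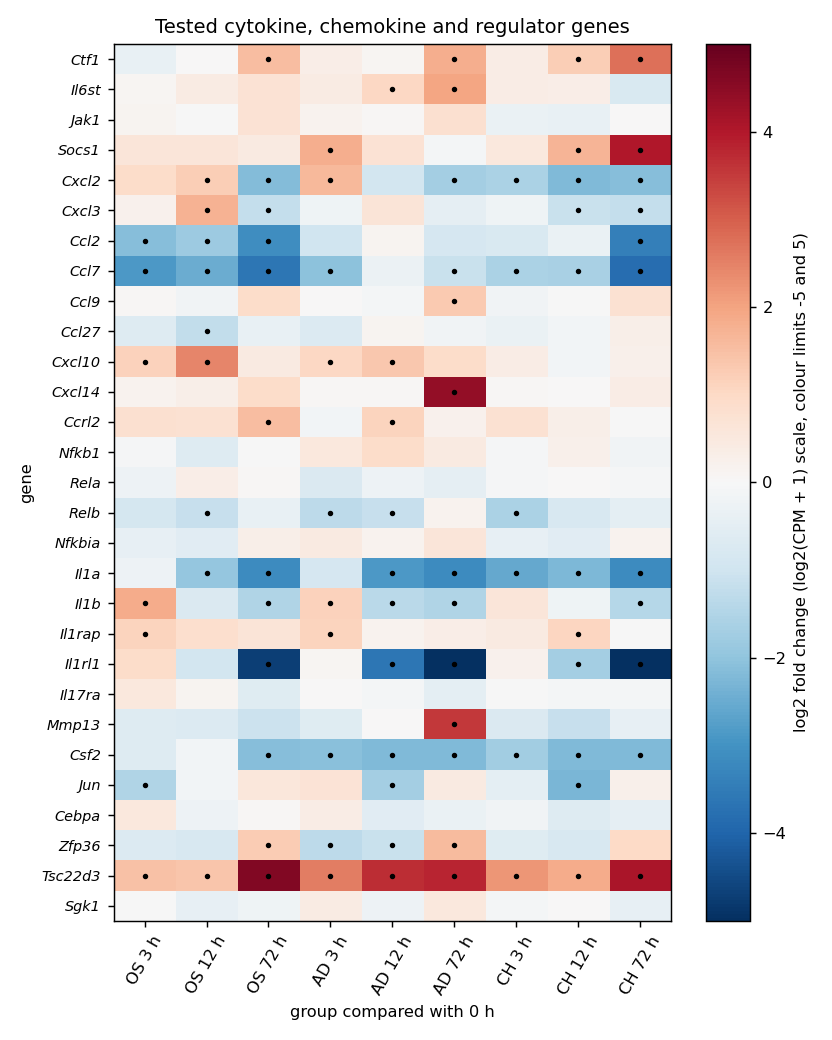
Rows are the 29 tested genes of the 9 lists, without Il6, Cxcl1, Cxcl6 and Ccr1, and columns are the groups compared with 0 h. Colour gives the log2 fold change on the log2(CPM + 1) scale, with limits at -5 and 5, and dots mark calls. Tsc22d3 was called higher in every column and Il1a and Csf2 lower in 7 columns each.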

How the data were processed

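RNA of 30 samples in 10 groups of 3 was sequenced. The values deposited by the authors carry the name FPKM. Within a sample, however, 100% of them equalled a whole number of equal steps (tolerance 0.1 reads), so the deposited values are CPM and the reads behind them were recovered. Trimmomatic, HISAT2 and StringTie are named in the submitters' processing notes. The genome build is not given in the sources used here. The labels mention ribosomal RNA removal with Ribo-Zero, the study's methods an mRNA library.

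Values of the 729 gene names on more than 1 of 10803 rows were summed. R 4.3.3 ran limma 3.58.1, with the variance trend of eBayes, on log2(CPM + 1) of 4363 genes, with 24 comparisons, 9 against 0 h, 6 between consecutive times and 9 between lineages, and no covariates. SEs are those of the model. Simulated data were used only to check the calling of changed genes and did not check the SEs. The genes and lists were chosen with earlier results of these data known. Named list genes were called in at least 2 comparisons with 0 h or have a direct tie to one of the 4 genes, and Cxcl14, Mmp13, Jak1, Nfkb1, Rela, Nfkbia and Sgk1 were named after their values were seen. Also tried were quantile normalization, median-ratio scaling, a pseudocount of 0.1, testing without the filter, the 6 samples of a comparison, a replicate block, each replicate left out, edgeR 4.0.16 (quasi-likelihood test, TMM) on recovered reads, and the highest row of a shared name. Leaving replicate 3 of adipogenesis at 72 h out of all comparisons was chosen after seeing the data. Python 3.11.15 and matplotlib 3.10.9 were used.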

Additional observations from a re-analysis of the deposited data

Results flagged for a closer look

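Results are named here where 2 effects against 0 h were past the threshold in opposite directions and the difference between them, tested in the same limma model over all genes, was past it too.

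Cxcl1 was higher than at 0 h at 3 h of osteogenesis and adipogenesis (log2 fold changes 1.08 and 1.51) and lower at 3 h of chondrogenesis (-1.54). The log2 differences were 2.62 for osteogenesis against chondrogenesis and -3.05 for chondrogenesis against adipogenesis. At 12 h it was higher in osteogenesis (1.18) and lower in chondrogenesis (-2.27), with a difference of 3.45. Within osteogenesis the change from 12 to 72 h was -3.57, from above to below the level of 0 h. The calls of Cxcl1 at 3 and 12 h of osteogenesis were lost under median-ratio scaling and edgeR, whereas the differences kept theirs under each alternative.

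Cxcl6 was higher at 12 h of adipogenesis (2.14) and lower at 12 h of chondrogenesis (-3.10), and the difference of chondrogenesis to adipogenesis was -5.24. At 72 h it was higher in adipogenesis (2.39) and lower in osteogenesis and chondrogenesis (-2.11 and -4.06), with differences of -4.50 and -6.45. Replicate 3 of adipogenesis at 72 h was 8.08 CPM beside 275 and 326 CPM, and without it these differences were -6.19 and -8.13. In the 6 samples of osteogenesis and adipogenesis at 72 h alone the difference was not called (limma adjusted p = 0.0677).

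Ccr1 was higher at 12 h of osteogenesis (1.54) and lower at 12 h of adipogenesis and chondrogenesis (-4.04 and -5.69). The differences of osteogenesis to these lineages were 5.59 and 7.24. From 12 to 72 h of osteogenesis Ccr1 changed by -5.91.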

How the results depend on the processing

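Over 4 genes and 24 comparisons, 96 log2 fold changes were recomputed under each alternative. Taking the highest row of a shared name cannot alter the values of these single-row genes. In this balanced design the replicate block cannot move a log2 fold change (Cxcl6 at 72 h of adipogenesis against 0 h is 2.39 with it), only its error, and it changed no call of the 96. No pairing of samples by replicate number was detected in the deviations from the group means. Same-numbered samples had correlations of -0.226 to 0.16 (median -0.0085) in 135 pairs. Differently numbered samples had -0.183 to 0.246 (median 0.0050) in 270 pairs. The cause of the changes below was not tested.

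With median-ratio scaling, Cxcl1 against 0 h was 0.84 at both 3 and 12 h of osteogenesis and Ccr1 from 12 to 72 h of adipogenesis -0.95, no longer called. Il6 at 3 h of adipogenesis (-1.05) and Cxcl6 at 3 and 12 h of osteogenesis (-1.75 and -1.81) became called. Values of no call turned sign for Ccr1 at 3 h of osteogenesis (-0.055), Cxcl6 from 3 to 12 h of osteogenesis (-0.059) and Il6 from 12 to 72 h of osteogenesis (0.0022). With quantile normalization Cxcl1 at 12 h of osteogenesis was 0.94 and lost its call, Il6 at 3 h of adipogenesis (-1.08) and Cxcl1 from 3 to 12 h of adipogenesis (-1.01) gained one, and Ccr1 at 3 h of osteogenesis (-0.18) and Cxcl1 from 3 to 12 h of osteogenesis (-0.32) turned. With edgeR, Cxcl1 at 3 and 12 h of osteogenesis was 0.86 and 0.77 and not called. Calls were gained by Il6 at 3 h of adipogenesis (-1.10), from 3 to 12 h of osteogenesis (-1.98) and in osteogenesis against chondrogenesis at 3 h (1.53). Cxcl6 gained them at 3 and 12 h of osteogenesis (-1.97 and -2.07), at 3 h of adipogenesis (-1.76) and from 12 to 72 h of adipogenesis (1.62), and Ccr1 in osteogenesis against adipogenesis at 72 h (1.30). In edgeR Ccr1 at 3 h of osteogenesis (-0.054) turned, as did the steps from 3 to 12 h of osteogenesis of Cxcl1 (-0.095) and Cxcl6 (-0.10) and the step of Il6 from 12 to 72 h of osteogenesis (0.25).

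With a pseudocount of 0.1 Ccr1 from 3 to 12 h of osteogenesis (1.37) lost its call. Ccr1 in chondrogenesis against adipogenesis at 72 h (-1.73), Cxcl6 from 12 to 72 h of chondrogenesis (-2.97), Cxcl6 in osteogenesis against chondrogenesis at 12 h (2.20) and Il6 from 3 to 12 h of osteogenesis (-1.68) gained one, and Il6 in osteogenesis against chondrogenesis at 72 h turned (-0.16). Without the filter Cxcl6 in osteogenesis against chondrogenesis at 72 h kept its 1.95 and lost its call. In the 6 samples of a comparison Cxcl6 kept its values, with calls lost at 72 h of adipogenesis (2.39) and in osteogenesis against adipogenesis at 72 h (-4.50) and gained at 3 and 12 h of osteogenesis (-1.53 and -1.51), at 3 h of adipogenesis (-1.32) and in osteogenesis against chondrogenesis at 12 h (1.59).

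Leaving out 1 replicate gave these ranges where a call or direction changed. Against 0 h, Cxcl1 ranged from 0.95 to 1.28 at 3 h of osteogenesis and from -1.02 to -0.89 at 72 h of adipogenesis. Cxcl6 against 0 h ranged from -1.66 to -1.35, -1.68 to -1.31 and -2.24 to -1.92 in osteogenesis at 3, 12 and 72 h, and from -1.44 to -1.13, 1.96 to 2.46 and 1.49 to 4.07 in adipogenesis. The calls of Cxcl6 were lost at 12 h of adipogenesis without its replicate 3 (1.96) and at 72 h of osteogenesis without its replicate 1 (-2.03) or replicate 1 of 0 h (-1.92). From 3 to 12 h of osteogenesis the ranges were -1.04 to -0.76 for Il6, -0.11 to 0.22 for Cxcl1 and -0.14 to 0.22 for Cxcl6. From 12 to 72 h they were -0.29 to 0.23 for Il6 in osteogenesis, -0.65 to 1.93 for Cxcl6 and -1.42 to -0.99 for Ccr1 in adipogenesis and -0.42 to 0.12 for Ccr1 in chondrogenesis. Il6 from 3 to 12 h of chondrogenesis ranged from -0.088 to 0.37. Osteogenesis against chondrogenesis ranged from 0.63 to 1.09 at 3 h and -0.17 to 0.35 at 72 h for Il6, and from 1.40 to 1.79 at 12 h and 1.87 to 2.05 at 72 h for Cxcl6, and osteogenesis against adipogenesis at 72 h from 0.58 to 1.25 for Ccr1. Depth limits what can be said of Il6 in osteogenesis from 12 h on and in chondrogenesis, and of Ccr1 and Cxcl6 late in chondrogenesis, where a group rests on a few reads.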

Other observations

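Endothelial markers were sparse. Of 6 genes on that list 3 had values, and Kdr, Tek and Vwf together came to 0.740 to 7.08 CPM in any sample. Vwf was called lower at 12 h of each lineage (log2 fold changes -1.68, -1.23 and -1.09 for osteogenesis, adipogenesis and chondrogenesis, limma), and at 3 h of chondrogenesis its value of -0.95 was called with median-ratio scaling, quantile normalization and edgeR (-1.17, -1.08 and -1.74). The call at 12 h of chondrogenesis was lost without replicate 2 of 0 h (-0.96), and edgeR also called Vwf lower at 3 and 72 h of osteogenesis (-1.17 and -1.25). Tek was called higher at 3 and 72 h of osteogenesis (1.33 and 2.12) and at 3 h of adipogenesis (1.68). At 72 h of adipogenesis Tek was at 0.85, and it was called higher by edgeR (2.34), without replicate 3 of that group (1.46) and without replicate 3 of 0 h (1.13).

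Of the 12 stromal markers 4 were tested. Thy1 was called lower at 72 h of all 3 lineages, with log2 fold changes of -1.12 (osteogenesis), -4.24 (adipogenesis) and -1.76 (chondrogenesis), of which the first was under the threshold with quantile normalization (-0.89). At 12 h of chondrogenesis Thy1 was also at -0.89, and it was called lower with median-ratio scaling (-1.13), by edgeR (-1.15) and without replicate 2 of that group (-1.01). Cd44 was called higher at 3 and 12 h of osteogenesis and at 3 h of adipogenesis (1.49, 1.003 and 1.03), of which the last 2 were lost under the other scalings and edgeR (0.55 to 0.78), and the second also without replicate 1 of its group or replicate 1 or 2 of 0 h (0.98 to 0.99). At 72 h of osteogenesis Cd44 was at -0.99, and the other scalings and edgeR called it lower (-1.14 to -1.06), as did leaving out replicate 3 of that group or replicate 2 of 0 h (-1.01). In adipogenesis at 72 h Cd44 was at -0.998, and it was called lower without replicate 3 of that group (-1.08), without its replicate 2 (-1.02) and without replicate 1 or 2 of 0 h (-1.01 and -1.02). Of the 21 leukocyte markers 2 were tested, and Lyz2 was called higher at 72 h of adipogenesis (1.35).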
